A study of Mus musculus with 18 samples.

Results

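Osteopontin (Spp1), SPARC (Sparc), SPARC-like 1 (Sparcl1), thrombospondin 1 (Thbs1), tenascin C (Tnc), periostin (Postn) and fibronectin (Fn1) were followed as 7 transcripts of matrix proteins, taken by gene name from the 16248 genes of an expression table of sorted endothelial cells (ECs). All 7 were listed, each in 1 row, and they were taken as a group by their known role, with earlier results of these data known. The ECs were sorted as live CD45- CD31+ cells from 3 tissues of FVB mice. Wild-type mammary fat pad gave the normal ECs. MMTV-PyMT ECs were those of spontaneous breast tumours in mice in which a mammary tumour virus promoter drives the polyoma middle T oncogene, chiefly in the mammary epithelium. Implanted ECs were those of tumours grown in fat pads of wild-type hosts out of MMTV-PyMT tumour cells that were first expanded in culture and were injected with Matrigel, itself a basement membrane extract. Each tissue received PBS or an equal volume of cGAMP, a cyclic dinucleotide that activates the cytosolic sensor STING, and was collected 3 h later. Each of the 6 groups had 3 libraries, so there were 18 in all. The labels give no age, and the study used female mice for both tumour models.

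Most matricellular proteins are secreted into the matrix to instruct cells and contribute little to its mechanical strength. They bind integrins and other surface receptors, they alter adhesion, and many of them reappear in wounds and tumours after being scarce in resting adult tissue. Osteopontin is a phosphorylated ligand of alphav integrins and of CD44, and it is also a protein of milk. Thrombospondin 1 restrains the growth of blood vessels through CD36 and CD47. SPARC and SPARC-like 1 bind collagen, and SPARC-like 1 is abundant in quiescent vessels. Tenascin C and periostin are made mostly by stromal cells of remodelling tissue, and fibronectin, which is a structural protein as well as a signal, is the classical ligand of the alpha5beta1 integrin.

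Promoter sequences are shown for Spp1, Tnc and Postn, since Spp1 gave the largest difference between tissues and Tnc and Postn rose together under cGAMP in implanted ECs. RefSeq windows of GRCm38.p6 were found for 4 of the 7 genes (Sparc was the fourth, with a start 3103 bases from the annotated start of the gene, and is not shown). Each line gives the 250 bases before the start of transcription in the direction of the gene. Capitals mark matches on either strand to 5 motifs searched, the TATA box core TATAAA, the RUNX element AACCACA, the AP-1 site TGANTCA, the interferon response core, in which GAAA is followed by any 2 bases and GAAA again, and the CCAAT box CCAAT. The windows lie at chr5:104434861-104435110 on the plus strand for Spp1, at chr4:64047016-64047265 on the minus strand for Tnc and at chr3:54360857-54361106 on the plus strand for Postn.
Spp1: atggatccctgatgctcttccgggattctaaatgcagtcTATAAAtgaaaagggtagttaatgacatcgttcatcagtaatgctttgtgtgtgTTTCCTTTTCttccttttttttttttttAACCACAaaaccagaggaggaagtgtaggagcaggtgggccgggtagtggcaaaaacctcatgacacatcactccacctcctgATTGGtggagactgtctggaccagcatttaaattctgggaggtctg
Tnc: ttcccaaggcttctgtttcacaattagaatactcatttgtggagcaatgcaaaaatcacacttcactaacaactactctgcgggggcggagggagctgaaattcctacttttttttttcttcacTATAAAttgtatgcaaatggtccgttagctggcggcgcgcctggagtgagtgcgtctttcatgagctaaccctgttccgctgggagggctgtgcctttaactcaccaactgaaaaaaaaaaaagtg
Postn: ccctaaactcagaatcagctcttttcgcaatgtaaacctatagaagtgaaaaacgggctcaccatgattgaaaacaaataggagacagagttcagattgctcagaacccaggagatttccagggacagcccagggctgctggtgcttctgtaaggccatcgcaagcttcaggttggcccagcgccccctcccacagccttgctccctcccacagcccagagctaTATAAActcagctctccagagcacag

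The Postn window held TATAAA at 21 to 26 bases upstream of the start, which is the usual distance of a TATA box. In Tnc the same letters lay 121 to 126 bases upstream and in Spp1 206 to 211 bases upstream. The Spp1 window also held AACCACA at 123 to 129 bases, the interferon response core on the opposite strand at 148 to 157 bases and the CCAAT box on the opposite strand at 42 to 46 bases upstream. None of the 3 windows held the AP-1 letters. Of 32851 mouse promoter windows, 12.4% held TATAAA, 4.40% AACCACA, 6.75% TGANTCA, 2.98% the interferon response core and 33.8% CCAAT, so these matches describe the letters alone.

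Recovered whole reads amounted to 9184658 to 12200551 per library, a 1.33-fold range. The lowest Spp1 value rested on 382 reads, and the lowest level of any member, that of Tnc in MMTV-PyMT PBS 1, on 388 reads. Levels are given in FPKM (fragments per kilobase of exon, scaled by 1 factor per library). The deposited factor did not follow the recovered total. In implanted cGAMP 1, with 11374761 recovered reads, 1 read on 1 kb made 0.1196 FPKM. In normal PBS 1, with 10234697 recovered reads, it made 0.0847 FPKM. Levels, folds and marker sums therefore depend on this scaling, and scaling by total reads was run as an alternative. The length matched all annotated exons of a gene, from 1648 bases for Spp1 to 11685 for Fn1. Levels of different members therefore compare only roughly, since a transcript may use fewer exons. Every member exceeded an FPKM of 1 in all 18 libraries, and the filter on low values removed none. Differences are log2 differences of FPKM + 1 with their standard error (SE), and a value passed where limma's Benjamini-Hochberg adjusted p, taken over all 13983 genes tested, was under 0.05. The study's legend names 3 mice per group and 3 independent experiments. Which library belongs to which experiment is not stated, so p-values measure the spread between these libraries.

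The endothelial markers were high throughout. Their sum over 8 genes (among them Pecam1 and Cdh5) lay between 713 and 1947 FPKM. Markers of other cells were present as well. Summed over 6 genes each, epithelial markers (Epcam, Krt8) lay between 245 and 905 FPKM, fibroblast markers (Col1a1, Dcn) between 75.2 and 728 FPKM, and mural cell markers (Rgs5, Acta2) between 157 and 996 FPKM, and the 7 myeloid markers in the table (Lyz2, C1qa) summed to 24.4 to 374 FPKM. Implanted cGAMP 1 and 2 stood apart by fibroblast markers, with sums of 598 and 728 FPKM against 303 in implanted cGAMP 3 and 283 to 320 in the PBS libraries. Implanted cGAMP 2 also had the highest myeloid sum, 374 FPKM. In bulk RNA, fewer cells of a type and less RNA per cell cannot be told apart.

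**Figure D1:**
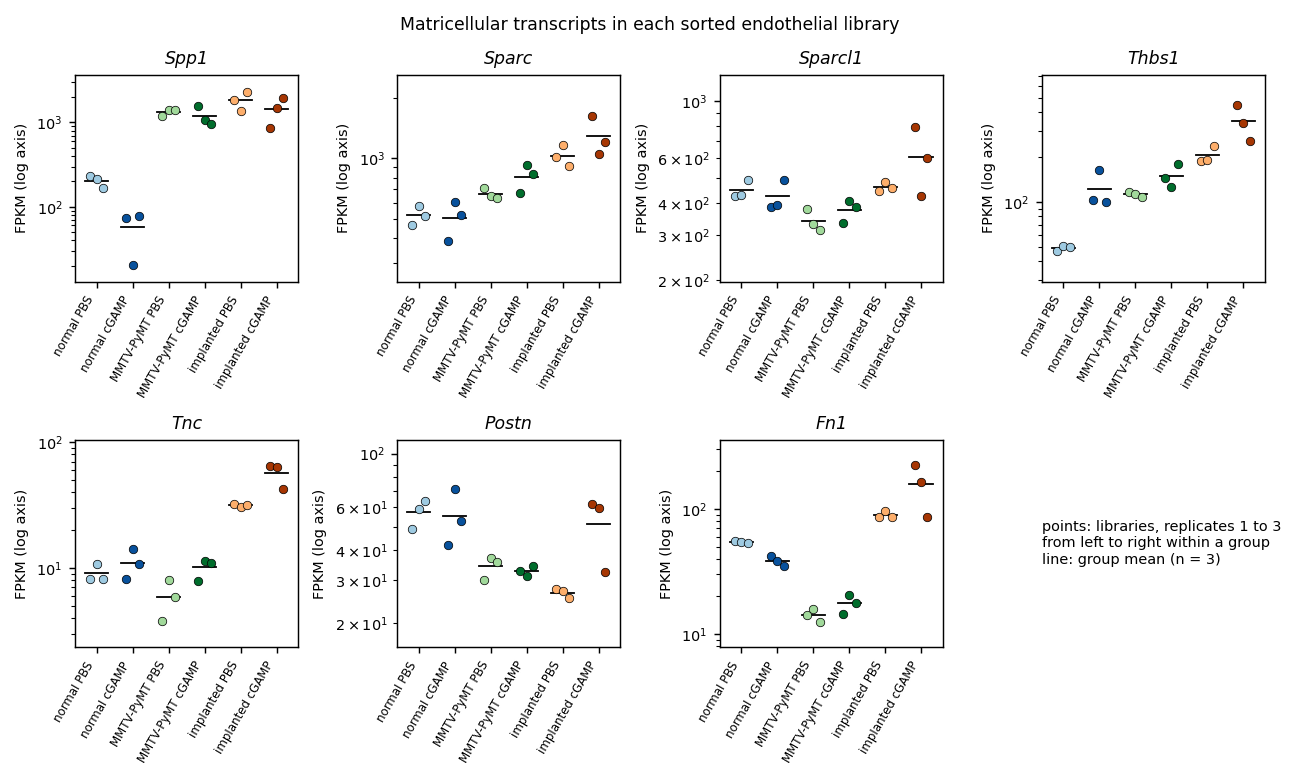
FPKM of the 7 members in each of the 18 libraries on log axes, with points for libraries, in replicate order, and lines for group means (n = 3). Spp1 ran from 20.6 FPKM in a normal cGAMP library to 2317 in an implanted PBS library, whereas Sparcl1 stayed between 314 and 796 FPKM.

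Osteopontin, encoded by Spp1 (chr5:104435118-104441050, plus strand, GRCm38), had the widest range of the 7 transcripts. In normal ECs its level was 230, 212 and 165 FPKM under PBS and 73.5, 20.6 and 77.2 FPKM under cGAMP. In MMTV-PyMT ECs it was 1182, 1424 and 1403 FPKM under PBS and 1559, 1074 and 951 FPKM under cGAMP. In implanted ECs it was 1871, 1381 and 2317 FPKM under PBS and 859, 1485 and 1942 FPKM under cGAMP. All 12 tumour libraries lay above all 6 normal libraries, and within normal ECs each cGAMP library lay below each PBS library. The 4 tumour groups overlapped each neighbour in the order of their means, from implanted PBS (1856 ± 468 FPKM, SD, n = 3) to MMTV-PyMT cGAMP (1195 ± 322 FPKM). The highest group mean was 32.5 times the lowest, that of normal cGAMP (57.1 ± 31.7 FPKM).

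Under PBS, Spp1 was 6.61-fold higher in MMTV-PyMT than in normal ECs (log2 difference 2.73, SE 0.40, adjusted p = 3.03e-05). In implanted ECs it was 9.18-fold higher than in normal ECs (log2 difference 3.17, SE 0.40, adjusted p = 7.77e-06). The PBS groups of the 2 tumours overlapped, and their difference did not pass (log2 difference 0.45, 95% interval -0.40 to 1.29, adjusted p = 0.377). cGAMP lowered Spp1 in normal ECs to 0.282 times its PBS level (log2 change -2.01, SE 0.40, adjusted p = 0.00133). The log2 change was -0.19 in MMTV-PyMT ECs (95% interval -1.03 to 0.66, adjusted p = 0.808) and -0.42 in implanted ECs (95% interval -1.27 to 0.42, adjusted p = 0.424), and neither passed. The change in MMTV-PyMT ECs differed from that in normal ECs by 1.82 (SE 0.56, adjusted p = 0.0573) and that in implanted ECs by 1.58 (SE 0.56, adjusted p = 0.0617). Neither difference passed. They did so in 7 and 5 of 27 alternative settings, among them without normal cGAMP 1 (2.10 and 1.87, adjusted p = 0.0376 and 0.0339), without normal cGAMP 3 (2.14 and 1.90, adjusted p = 0.0377 and 0.0324) and without implanted cGAMP 1 (1.82 and 1.91, adjusted p = 0.039 and 0.0289).

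Genes of milk proteins were lower in the same normal cGAMP libraries as Spp1. The summed level of 6 milk genes was 324, 214 and 164 FPKM in the normal PBS libraries and 83.1, 88.6 and 76.4 FPKM in the normal cGAMP libraries, and 4 of the 6 (Csn1s1, Csn1s2a, Csn2 and Lalba) passed as lower. The sum was 817 to 1396 FPKM in MMTV-PyMT PBS and 569 to 859 FPKM in implanted PBS, above that of normal PBS, but its genes did not move alike. Against normal PBS, 3 passed as higher in MMTV-PyMT (Csn3, Wap and Lalba) and 2 in implanted ECs (Csn3 and Wap), whereas Csn1s2a passed as lower in both, at 0.141 and 0.0608 times (adjusted p = 0.0117 and 0.00314). Epithelial keratins and Epcam did not follow in normal ECs, where 0 of 6 epithelial markers passed in the limma fit for cGAMP (0 also at an unadjusted p under 0.05) and their sums were 313 to 395 FPKM under PBS and 355 to 419 FPKM under cGAMP. In MMTV-PyMT PBS their sum was 838 to 905 FPKM, and 4 of 6 passed as higher than in normal ECs. In implanted ECs under cGAMP the milk sum was 239 to 395 FPKM, without overlap with PBS, and 2 of 6 milk genes passed as lower (Csn3 and Wap), while Spp1 overlapped. The part of these transcripts in the Spp1 values was not tested. A predicted gene, Gm42793, overlaps Spp1, and whether reads were counted by strand is not stated.

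**Figure D2:**
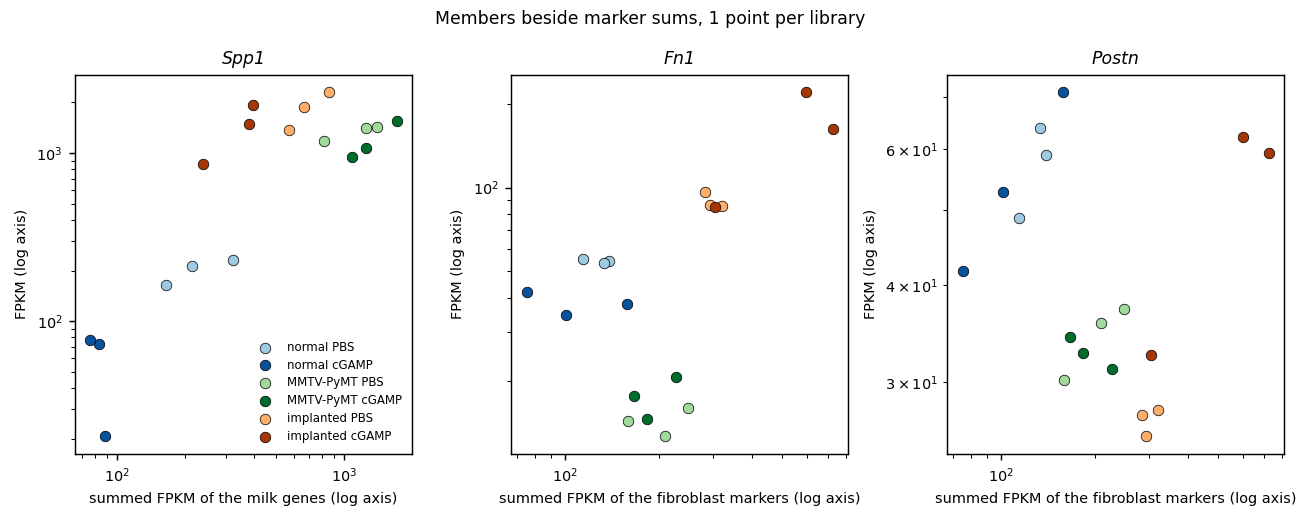
Level of Spp1 against the summed milk genes, and of Fn1 and Postn against the summed fibroblast markers, in FPKM on log axes with 1 point per library coloured by group. The normal cGAMP libraries are lowest for both Spp1 and milk genes, and implanted cGAMP 1 and 2, with fibroblast sums of 598 and 728 FPKM, are the right-hand points of the other panels.

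Sparc (chr11:55394500-55423183, minus strand) and Sparcl1 (chr5:104079111-104113733, minus strand) encode related collagen-binding glycoproteins, and both were abundant in every library. Sparc was 464, 579 and 513 FPKM in normal PBS and 388, 608 and 522 FPKM in normal cGAMP. It was 710, 651 and 633 FPKM in MMTV-PyMT PBS and 669, 925 and 833 FPKM in MMTV-PyMT cGAMP. The implanted libraries had 1011, 1162 and 908 FPKM under PBS and 1626, 1053 and 1199 FPKM under cGAMP. Under PBS the order was normal, MMTV-PyMT and implanted ECs, with the groups apart from each other, and the cGAMP group of each tissue overlapped its PBS group. The difference passed for implanted against normal ECs (1.98-fold, log2 difference 0.98, SE 0.18, adjusted p = 0.000322) and for implanted against MMTV-PyMT ECs (1.54-fold, log2 difference 0.62, SE 0.18, adjusted p = 0.011), the latter not without implanted PBS 2 (log2 difference 0.53, adjusted p = 0.0533). With quantile normalization both calls were lost, at log2 differences of 0.36 (adjusted p = 0.0676) and 0.15 (adjusted p = 0.459). It did not pass for MMTV-PyMT against normal ECs (log2 difference 0.36, SE 0.18, adjusted p = 0.102) although those libraries did not overlap.

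Sparcl1 differed least between groups, with the highest group mean 1.78 times the lowest. It was 426, 429 and 490 FPKM in normal PBS, 386, 393 and 493 FPKM in normal cGAMP, 377, 332 and 314 FPKM in MMTV-PyMT PBS and 334, 408 and 386 FPKM in MMTV-PyMT cGAMP. It was 447, 485 and 456 FPKM in implanted PBS and 796, 427 and 599 FPKM in implanted cGAMP. Every group overlapped the next in the order of means, and the MMTV-PyMT PBS libraries were below all normal PBS and implanted PBS libraries. Against implanted PBS the difference passed (implanted 1.36-fold higher, log2 difference 0.44, SE 0.17, adjusted p = 0.0437), and against normal PBS it did not (log2 difference -0.40, SE 0.17, adjusted p = 0.0583). The first call was lost in 13 of 27 alternative settings, 9 of which left out 1 library (normal PBS 1 or 2, any implanted PBS, implanted cGAMP 3, MMTV-PyMT PBS 2 or 3, or MMTV-PyMT cGAMP 3), with log2 differences of 0.39 to 0.47 and adjusted p of 0.0509 to 0.133. The second passed in 7 settings, among them without implanted cGAMP 1 or 2, which enter through the shared spread (adjusted p = 0.0179 and 0.0147). Neither Sparc nor Sparcl1 passed for cGAMP in any tissue. For normal, MMTV-PyMT and implanted ECs in turn, the log2 changes of Sparc were -0.05, 0.27 and 0.31 and those of Sparcl1 -0.09, 0.14 and 0.35, with adjusted p from 0.12 to 0.851. In implanted ECs the Sparcl1 log2 change was 0.58 (adjusted p = 0.00475) without implanted cGAMP 2 and 0.13 (adjusted p = 0.55) without implanted cGAMP 1.

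Thrombospondin 1, encoded by Thbs1 (chr2:118111876-118127133, plus strand), was the only member that rose with cGAMP in normal ECs. Its level was 46.6, 50.4 and 50.1 FPKM in normal PBS and 103, 165 and 99.8 FPKM in normal cGAMP. In MMTV-PyMT ECs it was 117, 114 and 108 FPKM under PBS and 145, 126 and 179 FPKM under cGAMP. In implanted ECs it was 187, 192 and 238 FPKM under PBS and 448, 340 and 258 FPKM under cGAMP. In each tissue all 3 cGAMP libraries were above all 3 PBS libraries, and normal cGAMP 2 lay within the range of MMTV-PyMT cGAMP. The rise was 2.51-fold in normal ECs (log2 change 1.27, SE 0.20, adjusted p = 0.000188) and 1.70-fold in implanted ECs (log2 change 0.73, SE 0.20, adjusted p = 0.00776). With quantile normalization the change in implanted ECs was 0.22 (adjusted p = 0.357), and with scaling by total reads it was 0.41 (adjusted p = 0.0628). On these scales the change in implanted ECs was smaller than that in normal ECs (adjusted p = 0.0139 with quantile normalization, and log2 difference -0.85, adjusted p = 0.0238, with scaling by total reads). In MMTV-PyMT ECs the log2 change of 0.39 did not pass (95% interval -0.03 to 0.81, adjusted p = 0.222), and its difference from that in normal ECs did not pass either (log2 -0.88, SE 0.28, adjusted p = 0.0621), although it did so in 8 of 27 alternative settings, among them without implanted cGAMP 1 or 3 (adjusted p = 0.0332 and 0.0418 at the same log2 value).

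Between tissues Thbs1 separated all 3 PBS groups. It was 2.31-fold higher in MMTV-PyMT (log2 difference 1.19, adjusted p = 9.97e-05) and 4.19-fold higher in implanted (log2 difference 2.04, adjusted p = 4.80e-07) than in normal ECs. Implanted ECs exceeded MMTV-PyMT ECs 1.82-fold (log2 difference 0.85, adjusted p = 0.00248). Thbs1 thus followed the same order of tissues under PBS as Sparc.

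Tenascin C, encoded by Tnc (chr4:63959785-64047015, minus strand), was low in normal and MMTV-PyMT ECs and several-fold higher in implanted ECs. It was 8.19, 10.8 and 8.10 FPKM in normal PBS, 8.17, 14.1 and 10.7 FPKM in normal cGAMP, 3.76, 7.97 and 5.84 FPKM in MMTV-PyMT PBS and 7.83, 11.4 and 11.0 FPKM in MMTV-PyMT cGAMP. The implanted libraries had 32.3, 30.8 and 31.4 FPKM under PBS and 65.2, 63.8 and 42.3 FPKM under cGAMP. All 6 implanted libraries were above all others, and the implanted cGAMP libraries were above the implanted PBS libraries. Implanted PBS exceeded normal PBS 3.49-fold (log2 difference 1.71, SE 0.23, adjusted p = 1.42e-05) and MMTV-PyMT PBS 5.38-fold (log2 difference 2.29, SE 0.23, adjusted p = 1.60e-06). MMTV-PyMT PBS was lower than normal PBS, at 0.648 times its mean (log2 difference -0.59, SE 0.23, adjusted p = 0.0372). That call was lost when normal PBS 1 or 2 or MMTV-PyMT PBS 1 or 3 was left out, with log2 differences of -0.64, -0.46, -0.35 and -0.61 and adjusted p of 0.0507, 0.14, 0.202 and 0.0662.

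cGAMP raised Tnc 1.81-fold in implanted ECs (log2 change 0.81, SE 0.23, adjusted p = 0.00981) and 1.72-fold in MMTV-PyMT ECs (log2 change 0.72, SE 0.23, adjusted p = 0.0489). In MMTV-PyMT ECs the groups overlapped by 1 library on each side (7.97 FPKM under PBS against 7.83 under cGAMP), and the call was lost in 14 of 27 alternative settings. Of these, 11 left out 1 library (any normal or implanted PBS, normal cGAMP 3, MMTV-PyMT PBS 1 or 3, or MMTV-PyMT cGAMP 2 or 3), with log2 changes of 0.48 to 0.75 and adjusted p of 0.0541 to 0.187. Normal ECs had a log2 change of 0.24 (95% interval -0.24 to 0.72, adjusted p = 0.457). No difference of the Tnc change between tissues passed.

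Periostin, encoded by Postn (chr3:54361109-54391037, plus strand), was the only member whose highest group mean was in normal ECs. It was 48.9, 59.0 and 64.0 FPKM in normal PBS, 41.8, 71.2 and 52.8 FPKM in normal cGAMP, 30.2, 37.3 and 35.7 FPKM in MMTV-PyMT PBS and 32.7, 31.2 and 34.3 FPKM in MMTV-PyMT cGAMP. It was 27.6, 27.2 and 25.5 FPKM in implanted PBS and 62.2, 59.4 and 32.5 FPKM in implanted cGAMP. The PBS libraries of each tumour were below all normal PBS libraries, and implanted cGAMP 1 and 2 returned to the normal range while implanted cGAMP 3 did not. Relative to normal PBS, Postn was 0.601 times as high in MMTV-PyMT (log2 difference -0.72, SE 0.21, adjusted p = 0.00751) and 0.467 times as high in implanted ECs (log2 difference -1.06, SE 0.21, adjusted p = 0.000476). cGAMP raised it 1.92-fold in implanted ECs (log2 change 0.86, SE 0.21, adjusted p = 0.0035), whereas its log2 change was -0.08 in normal and -0.07 in MMTV-PyMT ECs (adjusted p = 0.813 and 0.88).

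Fibronectin, encoded by Fn1 (chr1:71585520-71653200, minus strand), gave the largest difference of any member between the tumour types. It was 55.2, 54.2 and 53.2 FPKM in normal PBS, 41.8, 38.0 and 34.7 FPKM in normal cGAMP, 14.3, 15.9 and 12.6 FPKM in MMTV-PyMT PBS and 14.5, 20.7 and 17.6 FPKM in MMTV-PyMT cGAMP. It was 85.5, 96.2 and 86.7 FPKM in implanted PBS and 222, 163 and 85.4 FPKM in implanted cGAMP. MMTV-PyMT libraries were below all normal libraries and implanted libraries above them, with no overlap. Under PBS, Fn1 was 6.26-fold higher in implanted than in MMTV-PyMT ECs (log2 difference 2.57, SE 0.23, adjusted p = 6.26e-07). Relative to normal ECs it was 0.264 times as high in MMTV-PyMT (log2 difference -1.86, SE 0.23, adjusted p = 5.86e-06) and 1.65-fold higher in implanted ECs (log2 difference 0.71, SE 0.23, adjusted p = 0.0174). The last difference did not pass without implanted PBS 2 (0.66, adjusted p = 0.0559) or with quantile normalization (0.48, adjusted p = 0.0693).

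Under cGAMP, Fn1 increased 1.75-fold in implanted ECs (log2 change 0.70, SE 0.23, adjusted p = 0.0238), with implanted cGAMP 3 at 85.4 FPKM, just under the PBS range. The call failed in 8 of 27 alternative settings (in 1 of them, without implanted cGAMP 1 and 2, the log2 change was -0.06), among them without implanted cGAMP 1 (log2 change 0.40, adjusted p = 0.141), without implanted cGAMP 2 (0.62, adjusted p = 0.0707) and without implanted PBS 1 or 3 (0.67 and 0.68, adjusted p = 0.0663 and 0.0616), and the log2 change was 1.08 (adjusted p = 3.33e-05) without implanted cGAMP 3. In normal ECs every cGAMP library was below every PBS library, yet the log2 change of -0.50 did not pass (95% interval -0.99 to -0.01, adjusted p = 0.109), although it did so in 5 of 27 settings, among them without implanted cGAMP 1 or 3 (adjusted p = 0.0398 and 0.00871). In MMTV-PyMT ECs it was 0.28 (adjusted p = 0.474).

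**Figure D3:**
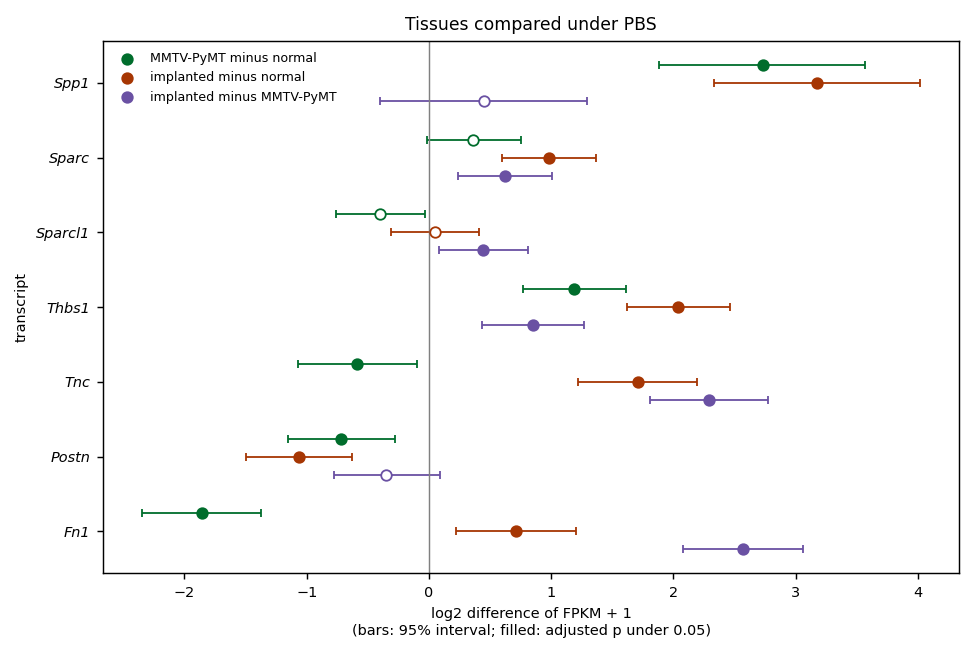
Log2 differences of FPKM + 1 between the PBS groups of each pair of tissues for the 7 members, with bars for 95% intervals and filled points for adjusted p under 0.05 (limma). Fn1 and Tnc differ most between the tumour types (2.57 and 2.29), and Spp1 differs most between tumour and normal ECs (2.73 and 3.17).

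Counted by comparison, MMTV-PyMT ECs under PBS had 2 members higher (Spp1 and Thbs1) and 3 lower (Tnc, Postn and Fn1) than normal ECs. Of all tested genes, 29.8% passed as higher and 26.6% as lower, so 5 of 7 is not far from the share over all genes. The libraries of the compared groups did not overlap for any of the 7, but the share of all tested genes without overlap was not counted. In implanted against normal ECs, 5 members were higher (Spp1, Sparc, Thbs1, Tnc and Fn1) and 1 lower (Postn), against 25.0% of tested genes higher and 23.6% lower. Between the tumour types 5 members passed, all higher in implanted ECs (Sparc, Sparcl1, Thbs1, Tnc and Fn1), against 20.8% of all tested genes higher and 24.6% lower. The median log2 difference of the 7 was -0.40, 0.98 and 0.62 in these comparisons, beside medians over all tested genes of 0.016, 0.01 and -0.01. The 3 comparisons share their PBS groups and are not independent of each other.

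Other cell types differed between the tissues too. All 6 mural markers were lower in both tumours than in normal ECs, with sums of 884 to 996 FPKM in normal PBS against 200 to 279 in MMTV-PyMT PBS and 185 to 226 in implanted PBS. Fibroblast marker sums were 114 to 139 FPKM in normal PBS, 159 to 248 in MMTV-PyMT PBS and 283 to 320 in implanted PBS. Single fibroblast markers disagreed, since Dcn was 11.2 FPKM in normal PBS and 2.25 FPKM in implanted PBS, whereas Col1a1 was 33.8 and 186 FPKM. The endothelial marker sum was 713 to 879 FPKM in MMTV-PyMT PBS, below the 970 to 1115 FPKM of normal PBS and the 1159 to 1442 FPKM of implanted PBS. The part of these markers in the differences of the members was not tested.

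With cGAMP, normal ECs had 1 member higher (Thbs1) and 1 lower (Spp1), while 13.7% of all tested genes passed as higher and 18.2% as lower. In MMTV-PyMT ECs 1 member passed, Tnc, which was higher, beside 7.42% of all tested genes higher and 4.57% lower. In implanted ECs 4 members passed, all higher (Thbs1, Tnc, Postn and Fn1), while 20.3% of tested genes passed as higher and 18.8% as lower. The median log2 change of the 7 was -0.08, 0.27 and 0.70 in the order just given, beside -0.045, -0.037 and -0.014 over all tested genes. No member passed for cGAMP in all 3 tissues.

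**Figure D4:**
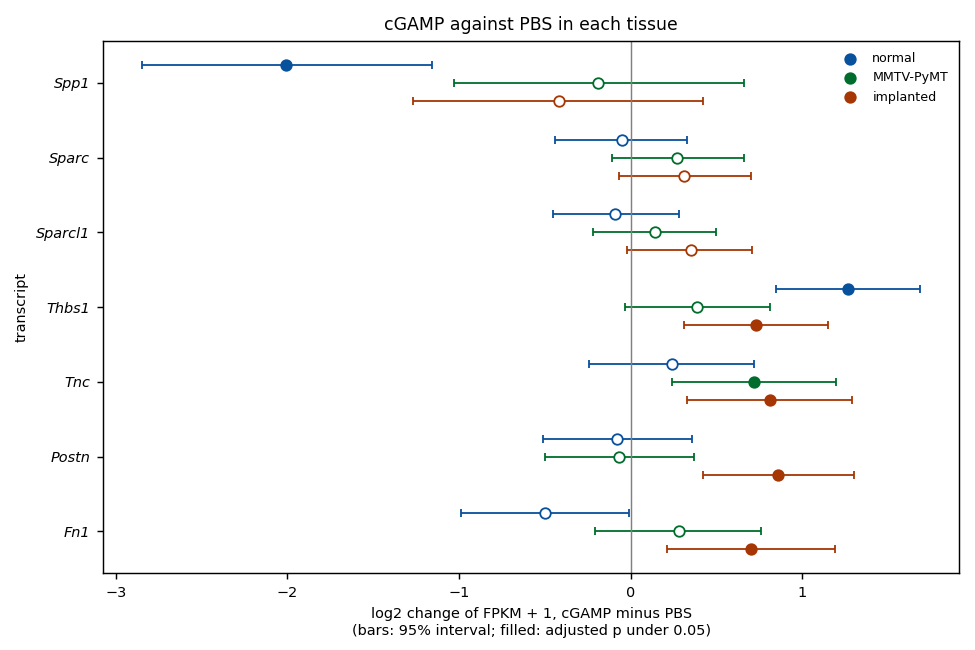
Log2 change of FPKM + 1 under cGAMP for each member in the 3 tissues, with bars for 95% intervals and filled points for adjusted p under 0.05 (limma). Spp1 in normal ECs (-2.01) and Thbs1 in normal ECs (1.27) lie farthest from 0, and the 4 filled implanted points lie between 0.70 and 0.86.

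Among the implanted libraries, the 4 members that rose were highest in implanted cGAMP 1 and 2, which also had the highest fibroblast marker sums. Each of the 4 was higher in implanted cGAMP 1 than in implanted cGAMP 2. The fibroblast sum was higher in implanted cGAMP 2 (728 against 598 FPKM), and the endothelial sum in implanted cGAMP 1 (1947 against 1177 FPKM). Of 6 fibroblast markers, 4 passed as higher under cGAMP (Col1a1, Col1a2, Dcn and Lum), and 1 of 7 myeloid markers (Cd68) did. A setting added after seeing the data left out implanted cGAMP 1 and 2 and kept 1 library in the group. The log2 changes were then 0.33 for Thbs1, 0.41 for Tnc, 0.27 for Postn and -0.06 for Fn1. The libraries left out had the higher levels of these transcripts, so the changes become smaller at any fibroblast level. Mural marker sums were also higher in implanted cGAMP 1 and 2, at 405 and 292 FPKM, against 157 in implanted cGAMP 3 and 185 to 226 in implanted PBS. Implanted cGAMP 3 was above all implanted PBS libraries for Thbs1 (258 FPKM), Tnc (42.3 FPKM) and Postn (32.5 FPKM). Scaling by total reads moved the median of all genes in this comparison from -0.014 to -0.247, and on that scale only Postn passed. The part of differences in fibroblast, mural or endothelial content in these rises was not tested.

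The change under cGAMP was also compared between tissues. Relative to normal ECs, the change in implanted ECs was larger by 0.94 for Postn (SE 0.29, adjusted p = 0.0339) and by 1.20 for Fn1 (SE 0.32, adjusted p = 0.0164), so 2 of 7 members passed against 18.6% of all tested genes. Without implanted cGAMP 1 and 2, which hold the higher values, 1 library was left in the group, and the differences were 0.35 and 0.44. The Postn difference was lost in 13 of 27 alternative settings. Of these, 9 left out 1 library (normal PBS 2 or 3, normal cGAMP 1 or 3, any implanted PBS, or implanted cGAMP 1 or 2), with values of 0.76 to 0.96 and adjusted p of 0.0532 to 0.0854. With quantile normalization neither passed (0.62 for Postn and 0.86 for Fn1, adjusted p = 0.101 and 0.0521). Without implanted cGAMP 2, Sparcl1 also passed (0.66, adjusted p = 0.0236). Between MMTV-PyMT and normal ECs 0 members passed in limma, against 8.37% of all tested genes. There 3 members had an unadjusted p under 0.05 (Spp1, Thbs1 and Fn1) and 2 passed with voom on the recovered reads. The shares of all genes at an unadjusted p under 0.05 or with voom were not counted, here or in the next comparison. Without implanted cGAMP 3 the Fn1 difference was 0.78 and passed (adjusted p = 0.019). Between implanted and MMTV-PyMT ECs 0 members passed in limma, against 11.1% of tested genes. There 1 member had an unadjusted p under 0.05 (Postn, log2 0.93, adjusted p = 0.0516) and 1 passed with voom. Postn passed without normal cGAMP 1 or 2 (adjusted p = 0.0375 and 0.0336), and without implanted cGAMP 3 both Postn (1.22, adjusted p = 0.00267) and Fn1 (0.81, adjusted p = 0.0137) did.

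Receptors of these proteins were followed as a list of 17 genes, all of them in the table and tested. Receptors and relatives named as rising or falling most were ranked by the log2 difference of FPKM + 1, and a plain fold ranks genes of low level differently. Under cGAMP, normal ECs had 4 that rose and 1 that fell, MMTV-PyMT ECs 2 that rose, and implanted ECs 9 that rose and 1 that fell. The median log2 change of the list was 0.11, 0.11 and 0.51, beside the medians and shares over all genes given above. Cd47, a receptor of thrombospondin 1, rose most in implanted ECs, from 44.4 to 46.3 FPKM under PBS to 109 to 149 FPKM under cGAMP (log2 change 1.45, SE 0.12, adjusted p = 7.38e-08), and the change exceeded that in normal ECs by 1.23 (adjusted p = 0.000117). Itgav, the alphav chain that binds osteopontin, periostin and fibronectin, rose from 18.5 to 20.4 FPKM to 37.8 to 45.0 FPKM in implanted ECs (2.06-fold, adjusted p = 2.00e-07), without overlap. Cd44, another receptor of osteopontin, rose in implanted ECs (log2 change 0.92, adjusted p = 6.88e-05) and in normal ECs (log2 change 0.57, adjusted p = 0.00571), where Spp1 fell.

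Sdc4, a heparan sulphate proteoglycan that binds fibronectin, was the receptor that rose most in normal ECs, from 55.6 to 136 FPKM on average (log2 change 1.27, SE 0.23, adjusted p = 0.000619). Itga8, which pairs with the beta1 chain, fell most in normal and in implanted ECs (log2 changes -0.49 and -0.75, adjusted p = 0.0344 and 0.00199). In MMTV-PyMT ECs the rises were Itga5, the partner of beta1 in the fibronectin receptor (log2 change 0.66, adjusted p = 0.022), and Cd47 (log2 change 0.48, adjusted p = 0.0127).

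**Figure D5:**
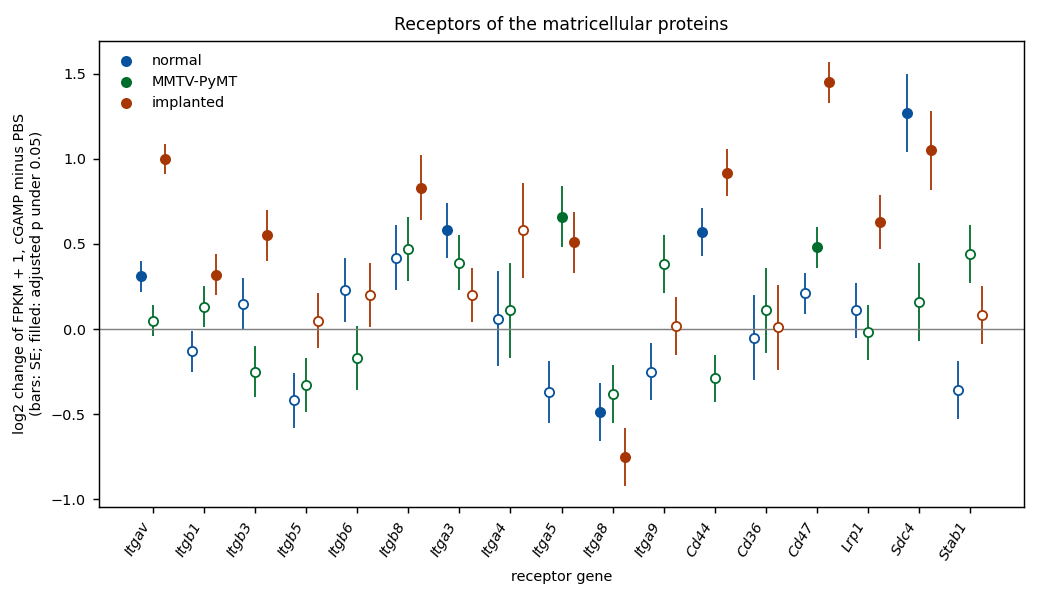
Log2 change of FPKM + 1 under cGAMP for the 17 receptor genes by tissue, with bars for SE and filled points for adjusted p under 0.05 (limma). Cd47 in implanted ECs (1.45) and Sdc4 in normal ECs (1.27) are the highest points, and Itga8 in implanted ECs (-0.75) is the lowest.

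Between tissues under PBS, the receptors split. In MMTV-PyMT against normal ECs 6 were higher and 6 lower, in implanted against normal ECs 7 were higher and 2 lower, and in implanted against MMTV-PyMT ECs 6 were higher and 5 lower. Over all tested genes the shares higher and lower were 29.8% and 26.6%, 25.0% and 23.6%, and 20.8% and 24.6%. Cd36, the fatty acid transporter that also binds thrombospondin 1, was 640 FPKM in normal PBS and had the largest fall in both tumours, to 148 FPKM in MMTV-PyMT (log2 difference -2.09, adjusted p = 4.48e-06) and 144 FPKM in implanted ECs (log2 difference -2.14, adjusted p = 3.79e-06), where Thbs1 was higher. Itgb3, the chain that forms alphavbeta3 with Itgav, had PBS means of 9.12 (normal), 19.6 (MMTV-PyMT) and 59.7 FPKM (implanted), and it gave the largest rise in implanted against normal ECs (log2 difference 2.58, adjusted p = 1.63e-09) and against MMTV-PyMT ECs (log2 difference 1.55, adjusted p = 9.78e-07). Sdc4 rose most in MMTV-PyMT against normal ECs (log2 difference 1.75, adjusted p = 1.02e-05). Cd44 was 25.2 FPKM in MMTV-PyMT PBS and 10.1 FPKM in implanted PBS, the largest fall on the log2 scale between the tumour types (log2 difference -1.24, adjusted p = 4.89e-06).

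Relatives of the 7 proteins formed a list of 26 genes, of which 21 were in the table and 20 were tested. Under cGAMP 3 passed in normal ECs, all of which fell, 1 passed in MMTV-PyMT ECs, which fell, and 8 passed in implanted ECs, of which 7 rose, with median log2 changes of -0.08, 0.05 and 0.32. Tnn, among these 7, reached an FPKM of 1 only in implanted cGAMP (1.12 to 2.29 FPKM, against 0.660 to 0.870 in implanted PBS). It was tested only through the group where it is high. Of all tested genes 13.7% passed as higher and 18.2% as lower in normal ECs. The shares were 7.42% and 4.57% in MMTV-PyMT ECs and 20.3% and 18.8% in implanted ECs. With both directions together, the 8 of 20 in implanted ECs are near the share over all genes, but 7 of them rose and 1 fell. The difference of the changes, implanted minus normal, passed as positive for 7 of 20 relatives and as negative for 0, beside 18.6% of all tested genes in either direction. Ccn1, a secreted matrix signal of the CCN family, fell in normal ECs (log2 change -0.52, adjusted p = 0.00271) and in MMTV-PyMT ECs, from 269 to 323 FPKM to 172 to 207 FPKM (log2 change -0.66, adjusted p = 0.000911), and not in implanted ECs (log2 change -0.03, adjusted p = 0.851). Its change in implanted ECs differed from that in both others (adjusted p = 0.0452 against normal and 0.0178 against MMTV-PyMT ECs). Ccn2 had the largest fall in normal ECs (log2 change -0.73, adjusted p = 0.00881), followed by Fbln5, a protein of elastic fibres (log2 change -0.72, adjusted p = 0.000643). In implanted ECs Ccn3 rose most (log2 change 0.85, adjusted p = 0.00483), and Mfge8, an integrin ligand on membranes, fell (log2 change -0.45, adjusted p = 0.0379). Thbs2, the closest relative of Thbs1, rose by 0.66 there (adjusted p = 0.0268) with overlapping libraries.

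In the tissues under PBS, 5 relatives were higher and 10 lower in MMTV-PyMT than in normal ECs, 10 higher and 5 lower in implanted than in normal ECs, and 9 higher and 6 lower in implanted than in MMTV-PyMT ECs, beside all-gene shares of 29.8% and 26.6%, 25.0% and 23.6%, and 20.8% and 24.6%. Smoc1 and Smoc2, which share modules with SPARC, are relatives of Sparc. Smoc1 had PBS means of 1.94 (normal), 23.6 (MMTV-PyMT) and 5.24 FPKM (implanted), the largest rise on the log2 scale in MMTV-PyMT against normal ECs (log2 difference 3.07, adjusted p = 1.67e-07), although the plain fold of Smoc2 was larger (23.3 against 12.1). Smoc2 means were 0.31, 7.22 and 1.06 FPKM, the largest fall on the log2 scale in implanted against MMTV-PyMT ECs (0.148 times, adjusted p = 3.60e-07). By plain fold the mean of Comp fell further, to 0.113 times (adjusted p = 0.0463), but its libraries overlapped. Comp was 0.280 to 5.62 FPKM in MMTV-PyMT PBS and 0.102 to 0.469 FPKM in implanted PBS. Thbs2 means were 3.45, 7.24 and 25.5 FPKM, the largest rise in implanted ECs over normal (log2 difference 2.57, adjusted p = 1.29e-07) and over MMTV-PyMT ECs (log2 difference 1.69, adjusted p = 2.15e-05), in the same order of tissues as Thbs1. Spock2, a proteoglycan of the SPARC family, fell most in both tumours (log2 differences -2.36 and -3.32, adjusted p = 1.14e-07 and 2.73e-09), from 13.8 FPKM in normal PBS to 1.92 and 0.495 FPKM.

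For each member the 3 tested genes with the most similar pattern were taken by Pearson r of log2(FPKM + 1) over the 18 libraries, which fall into 6 groups and share 1 scaling, so that r describes the pattern and carries no p. Spp1 was most like Glmp, Tmem164 and Sec61b (r = 0.956, 0.954 and 0.946). Sparc was most like Ppic, a cyclophilin (r = 0.989), and the basement membrane genes Nid1 and Lamc1 (r = 0.987 and 0.985). Sparcl1 was most like Bmpr2, the BMP receptor of endothelium (r = 0.937), Sh2d3c and Macf1 (r = 0.928 and 0.925), and its r with the endothelial marker sum was 0.924.

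Thbs1 was most like Slc20a1, Litaf and Ttc39b (r = 0.978, 0.969 and 0.961). Tnc was most like Bst2, H2-K1 and Lgals3bp (r = 0.981, 0.979 and 0.977), which are genes known as interferon-induced. H2-K1 has near-identical relatives, so its counting is uncertain. Bst2 was 19.3 FPKM in MMTV-PyMT PBS, 27.6 FPKM in normal PBS, 110 FPKM in implanted PBS and 185 FPKM in implanted cGAMP, the same order as Tnc over these groups.

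Postn was most like Ccdc80, Lrp1 and Lhfp (r = 0.943, 0.926 and 0.915), and its r was 0.782 with the mural and -0.099 with the fibroblast marker sum. Fn1 was most like Olfml2b, Lrrk2 and Slc43a3 (r = 0.977, 0.970 and 0.963). Among the members themselves Tnc and Fn1 were the most alike (r = 0.873), followed by Sparc and Thbs1 (r = 0.834), and Spp1 and Postn the most opposed (r = -0.705). The r of Spp1 was -0.906 with the mural marker sum, 0.849 with the milk gene sum, 0.658 with the fibroblast sum and 0.461 with the epithelial sum. That of Fn1 was 0.880 with the lymphatic, 0.845 with the endothelial and 0.552 with the fibroblast sum. That of Sparc with the fibroblast marker sum was 0.882.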

How the data were processed

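ECs were sorted by flow cytometry, and RNA of integrity above the study's minimum was made into libraries with a directional kit. Per the study's methods and the submitters' processing notes, reads were checked with FastQC, aligned to mm10 with STAR 2.7 and counted with HTSeq. The authors deposited 1 table of FPKM values for 16248 genes and 18 libraries, and how FPKM were made from counts is not given in the sources used here. Of the columns, 6 name only the treatment and were taken as normal because the others name their tumour.

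Whole reads were recovered from the FPKM steps for 16248 genes (100.00% of genes, within 0.05 reads or a relative 1e-06) with GENCODE M21 exon lengths (15772 genes) or the gene's own step (476 genes). All 18 replicate pairs differed by more than sampling noise (chi-square per gene 4.1 to 31.56). Intervals cover replicate spread, and reads carry no molecular identifiers. Genes with FPKM of at least 1 in at least 3 libraries (13983) were fitted as log2(FPKM + 1) with limma 3.58.1 in R 4.3.3 (1 mean per group, all 18 libraries, trend, 2-sided, 9 comparisons), with Benjamini-Hochberg adjustment over all tested genes. The pseudocount understates changes of low genes. The fit was tested on simulated data. Named relatives and receptors were the largest rise and fall past the threshold per comparison, plus up to 3 that bear on a member. The members and lists were chosen with earlier results of these data known. Alternatives were other pseudocounts, filters and scalings, voom on recovered reads, a replicate block, the compared libraries alone and leaving out libraries. Adipocyte markers were not analysed here. Figures were drawn with matplotlib 3.10.9.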

Additional observations from a re-analysis of the deposited data

Results flagged for a closer look

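The change under cGAMP differed between implanted and normal ECs for Postn and Fn1 by the interaction test in limma. For Postn the difference of log2 changes was 0.94 (SE 0.29, adjusted p = 0.0339), with a log2 change of 0.86 in implanted and -0.08 in normal ECs. For Fn1 the difference was 1.20 (SE 0.32, adjusted p = 0.0164), with log2 changes of 0.70 and -0.50. The Postn call was lost in 13 of 27 alternative settings. With quantile normalization neither difference passed in limma (0.62 for Postn and 0.86 for Fn1, adjusted p = 0.101 and 0.0521). In implanted ECs the rise of Postn was present in 3 of 3 cGAMP libraries and that of Fn1 in 2 of 3, and in normal ECs Fn1 was lower in 3 of 3. Implanted cGAMP 1 and 2, which carry the higher values of both transcripts, also have the highest fibroblast marker sums (598 and 728 FPKM). A setting added after seeing the data left out both and kept 1 library in the group, with differences of 0.35 for Postn and 0.44 for Fn1. Leaving out the libraries with the higher values lowers the differences at any fibroblast level, so this setting cannot speak to fibroblast transcripts. The part of fibroblast transcripts was not tested.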

How the results depend on the processing

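The 63 values of the 7 members in 9 comparisons were recomputed in 27 settings, 18 of which left out 1 library. Of 25 values past the threshold, 13 kept their direction and their side of it in all of them, and 1 changed sign in 1 setting (Fn1 in implanted ECs). The cause of the changes was not tested. For cGAMP in MMTV-PyMT ECs the count of members fell from 1 to 0 with no filter, with scaling by total reads and with the compared libraries alone, and was 0 to 1 when 1 library was left out. Scaling by total reads left 1 member in implanted ECs and gave 1 for MMTV-PyMT minus normal. There the log2 change of Sparc was -0.00 in implanted ECs, Sparcl1 in implanted against normal PBS -0.14, Postn in MMTV-PyMT minus normal -0.12, and Sparc and Tnc in implanted minus MMTV-PyMT -0.14 and -0.11. With quantile normalization 1 member passed in implanted ECs, 3 in implanted against MMTV-PyMT PBS and 2 in MMTV-PyMT minus normal. In implanted minus normal 1 passed, Thbs1, with a smaller change in implanted ECs (adjusted p = 0.0139), and the calls of Postn and Fn1 were lost. Scaling by total reads lost Postn there and gained Thbs1 (-0.85, adjusted p = 0.0238). With quantile normalization Sparcl1 was -0.06 in MMTV-PyMT ECs, -0.16 in implanted ECs and -0.23 in implanted against normal PBS. On the quantile scale Sparc was -0.17 in implanted ECs, Postn -0.04 in MMTV-PyMT minus normal, and Sparc and Sparcl1 -0.01 and -0.09 in implanted minus normal. On that scale Sparc, Sparcl1, Thbs1 and Tnc were -0.26, -0.10, -0.06 and -0.25 in implanted minus MMTV-PyMT. Without implanted cGAMP 1 and 2, a choice made after seeing the data, 0 members passed in implanted ECs, 3 in MMTV-PyMT minus normal and 0 in implanted minus normal. Spp1 and Fn1 were 0.10 and -0.06 in implanted ECs, and Spp1, Sparc, Thbs1, Tnc and Fn1 were 0.29, -0.04, -0.06, -0.31 and -0.34 in implanted minus MMTV-PyMT. A mean FPKM of at least 5 and voom each gave 2 in MMTV-PyMT minus normal and 1 in implanted minus MMTV-PyMT, where Tnc was -0.01 with voom. The compared libraries alone gave 2 in MMTV-PyMT minus normal and 1 in implanted minus normal. Leaving out 1 library at a time gave 3 to 5 members in implanted against MMTV-PyMT PBS, 0 to 2 in MMTV-PyMT minus normal, 1 to 2 in implanted minus normal and 0 to 2 in implanted minus MMTV-PyMT. It gave log2 values of -0.20 to 0.12 for Sparc and -0.27 to 0.10 for Postn in normal ECs, -0.17 to 0.21 for Postn in MMTV-PyMT minus normal, and -0.49 to 0.09 for Spp1, -0.14 to 0.18 for Sparc, -0.01 to 0.44 for Sparcl1 and -0.13 to 0.33 for Tnc in implanted minus MMTV-PyMT.

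Replicate numbers are shared across groups, yet same-numbered libraries did not deviate together (correlations -0.291 to 0.263 over 18 pairs, 2 of them over 0.1). The libraries were therefore not treated as pairs, although such correlations cannot exclude that same-numbered libraries share an experiment. A replicate block gave 2, 1 and 4 members for cGAMP in normal, MMTV-PyMT and implanted ECs and 5, 6 and 4 for the tissues, and it left every count within 1.5 times.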
